A study of Homo sapiens with 24 samples.

Results

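The 10 transcripts described here come from repressor, receptor and output genes of the circadian clock: PER1, PER2, PER3, CRY1, CRY2, NR1D1, NR1D2, DBP, BHLHE40 and BHLHE41. They were picked by gene symbol from a table of 60232 genes, and each matched exactly 1 row. All 10 passed the filter on low counts, which kept 18379 genes for testing. RNA was sequenced from 22Rv1 cells, an established line of human prostate carcinoma, with 3 libraries in each of 3 groups. Cells of the first group received KB05 at 200 µM, those of the second KB02 at 200 µM, and those of the third DMSO vehicle. Both agents are small molecules whose labels give a code name only. Each was left on the cells for 1 h, followed by 2 h in fresh medium, so RNA dates from 3 h. Whether the vehicle cells had the same change of medium is not stated in the labels. The study labels its treatments as biological triplicates, all on 1 cell line.

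The circadian clock is a loop of transcription and feedback that runs in most human cells. CLOCK, or its relative NPAS2, pairs with BMAL1 and binds E-box sequences, which turns on the PER, CRY, NR1D, DBP and BHLHE40/41 genes. PER and CRY proteins then return to the nucleus and silence that activator. NR1D1 and NR1D2 (REV-ERB alpha and beta) are nuclear receptors that repress BMAL1, in competition with the activating ROR receptors. DBP passes the rhythm on by binding D-box sequences, and BHLHE40 and BHLHE41 compete with the activator at E-boxes. Cells in a dish that have not been synchronised can be at different phases, so each level below is a mean over the culture.

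The sequences that the activator reads were looked for near the transcription starts, because the clock genes are known for carrying them. Windows of 250 bases before to 50 bases after each start (RefSeq, GRCh38.p14) were available for all 10 genes, 13 windows in all. The E-box CACGTG or its variant CACGTT lay in a window of 8 of the 10 genes on either strand. Of 27305 genes with such a window, 14.5% held either sequence. The D-box TTATGNAA was present in windows of 3 of the 10 genes, against 4.11% of all genes. No window of the 10 genes held the cAMP response element TGACGTCA (2.25% of all genes) or the heat shock core GAANNTTC (8.21% of all genes). The ROR and REV-ERB element TNGGTCA lay in windows of CRY2 and NR1D2 (11.4% of all genes). No match overlapped another. A match describes these letters only and is not a measured binding site. The stretches of 30 bases below show the E-box, E-box variant and D-box matches in capitals, read 5′ to 3′ on the strand of the gene. They cover the genes whose levels are followed in the rest of the text.
PER1 E-box, 173 bases before the start, chr17:8152560-8152589, minus strand: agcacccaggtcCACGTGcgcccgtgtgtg
PER1 D-box, 30 bases before the start, chr17:8152416-8152445, minus strand: agtgcccggcaTTATGCAAcccgcctcccc
PER2 E-box variant, 197 bases before the start, chr2:238288790-238288819, minus strand: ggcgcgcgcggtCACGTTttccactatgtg
PER3 D-box, 177 bases before the start, chr1:7784103-7784132, plus strand: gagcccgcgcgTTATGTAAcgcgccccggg
CRY1 E-box variant, 89 bases before the start, chr12:107093621-107093650, minus strand: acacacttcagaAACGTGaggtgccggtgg
CRY2 E-box variant, 188 bases before the start, chr11:45847275-45847304, plus strand: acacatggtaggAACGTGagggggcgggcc
NR1D1 E-box variant, 168 bases before the start, chr17:40100740-40100769, minus strand: gcgcaagagctcAACGTGccggctgttgga
NR1D2 E-box, 155 bases before the start, chr3:23945954-23945983, plus strand: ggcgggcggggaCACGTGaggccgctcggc
NR1D2 E-box, 105 bases before the start, chr3:23946004-23946033, plus strand: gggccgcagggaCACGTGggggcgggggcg
NR1D2 D-box, 194 bases before the start, chr3:23945916-23945945, plus strand: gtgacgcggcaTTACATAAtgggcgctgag
BHLHE40 E-box, 245 bases before the start, chr3:4979187-4979216, plus strand: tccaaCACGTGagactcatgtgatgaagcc
BHLHE41 E-box, 48 bases before the start, chr12:26125068-26125097, minus strand: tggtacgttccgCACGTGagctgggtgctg
In CRY1, CRY2 and NR1D1 the match AACGTG is CACGTT read on the other strand, and the NR1D2 D-box is also read on the other strand. The RefSeq start used is not always the outermost start in GENCODE 29. The matches in PER1, PER2, CRY1, CRY2, NR1D2, BHLHE40 and BHLHE41 therefore lie inside the annotated gene spans, and those in PER3 and NR1D1 outside them. Annotated exons cover all 250 bases before the start used in CRY1 and in BHLHE40. In BHLHE41 they cover 223, counting exons of a further gene, AC022509.3, with those of BHLHE41. DBP held none of the searched sequences in its window, and PER3 held a D-box but neither E-box form.

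PER1 rose 3.24-fold with KB02 and 1.26-fold with KB05, both against DMSO. CRY1 and CRY2 rose with KB02 and fell with KB05, but the fall of CRY1 was lost in 12 of 19 alternatives and the rise of CRY2 without DMSO replicate 1 (adjusted p = 0.0823). BHLHE41 rose with KB05, and PER2 and PER3 fell with it. NR1D1 and DBP were called higher with both compounds. The NR1D1 call was lost in 1 of 19 alternatives with KB02 and in 3 of 19 with KB05. DBP shares exonic bases with SPHK2, a gene on the opposite strand that rose too, so the rise of DBP is uncertain. NR1D2 and BHLHE40 passed the test in none of the 3 comparisons. With KB05 against DMSO, 4 of the 10 genes rose and 4 fell (edgeR, adjusted p under 0.05), where 39.8% of all genes tested were called, 18.7% higher and 21.1% lower. With KB02 against DMSO, 5 rose and none fell, where 46.1% of all genes were called, 22.8% higher and 23.3% lower, so the share of all calls is near the background. At an unadjusted p under 0.05, 1 fell with KB02, and DESeq2 and limma-voom also called 0 lower, whereas BHLHE40 was called lower with no filter on low counts (adjusted p = 0.0135) and without DMSO replicate 1 (0.014). The direct comparison of KB05 with KB02 called 1 higher and 5 lower, against 40% of all genes called, 21.8% higher and 18.2% lower. Among called genes, changes of at least 2-fold were made by 2 clock genes with KB05 against DMSO (7.67% of all genes), by 1 with KB02 against DMSO (12.3%) and by 3 with KB05 against KB02 (9.35%). The median log2 fold change of the 10 genes was 0.03 for KB05 against DMSO, 0.23 for KB02 against DMSO and -0.20 for KB05 against KB02. Over all genes it was 0.00, 0.00 and 0.06. The libraries of the groups did not overlap for 6 of the 10 genes with KB05 against DMSO (49.2% of all genes), for 5 with KB02 against DMSO (53.5%) and for 8 with KB05 against KB02 (50.3%). Both comparisons with vehicle use the same DMSO libraries, so they are not independent. The 10 genes and the further gene lists below were chosen with earlier results of these data known, so their shares called test no set. In such bulk samples fewer expressing cells and less RNA per cell cannot be told apart. Levels are given as CPM, the estimated counts of a gene scaled to a fixed effective library size (counts-per-million, by TMM).

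**Figure D1:**
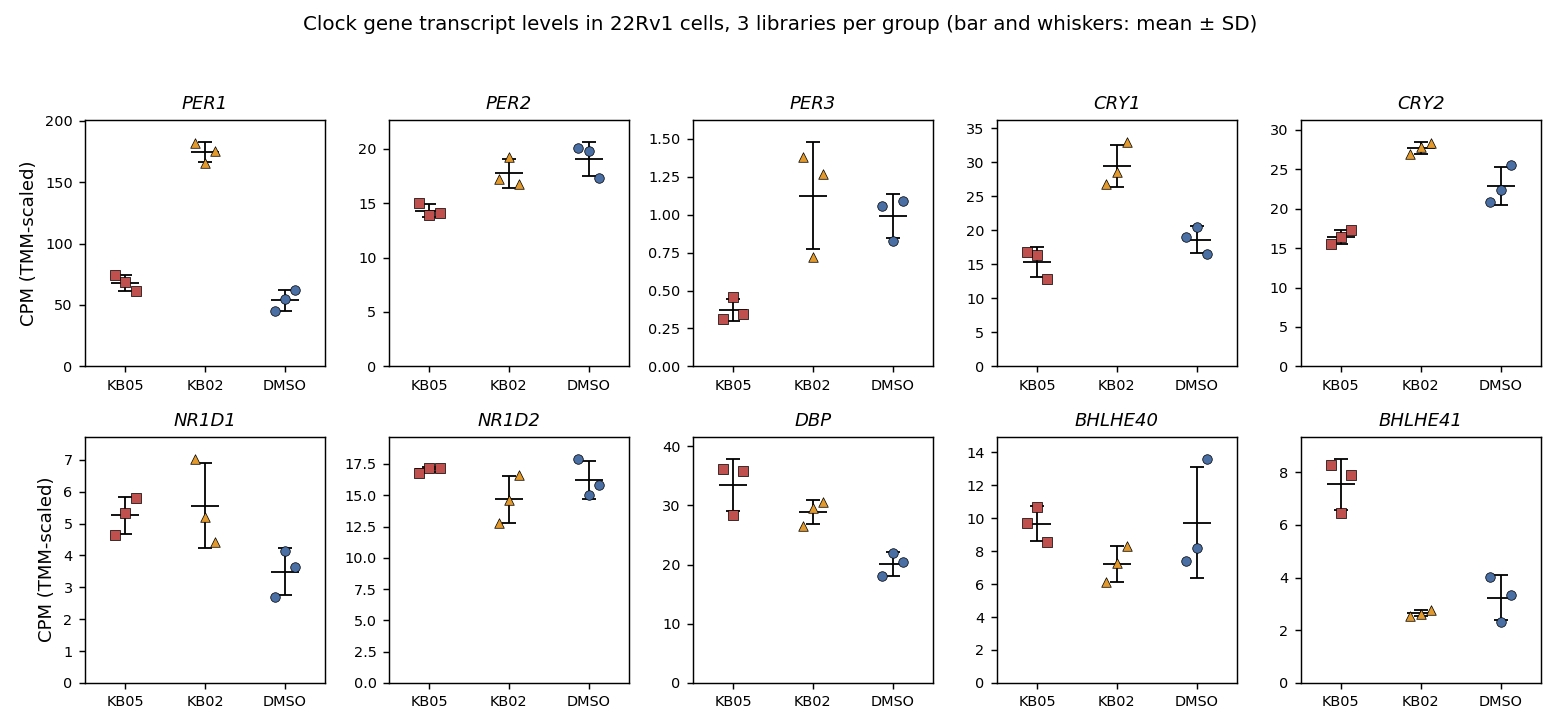
Level of each clock gene (CPM, scaled by TMM, y axis from 0) in KB05 (squares), KB02 (triangles) and DMSO (circles) libraries; points are libraries, and bars with whiskers are the mean ± SD of 3. PER1 in KB02 libraries, at 166 to 182 CPM, and BHLHE41 in KB05 libraries, at 6.44 to 8.28 CPM, lie apart from all other libraries of the same gene.

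PER1 encodes the PERIOD protein that is known in other cells for a fast transcriptional response to signals. It lies on chromosome 17 at 8140472 to 8156506 (ENSG00000179094, minus strand, GRCh38). PER1 stood at 74.3, 68.3 and 61.3 CPM in the KB05 libraries, at 182, 166 and 175 CPM in the KB02 libraries, and at 44.8, 54.9 and 61.8 CPM in the DMSO libraries. Every KB02 library lay above every other library, whereas the lowest KB05 library was just under the highest DMSO library. The log2 fold change was 0.34 ± 0.10 for KB05 against DMSO (SE; adjusted p = 0.00882) and 1.70 ± 0.10 for KB02 against DMSO (adjusted p = 1.04e-11). In the direct comparison PER1 was 2.56-fold lower with KB05 than with KB02 (log2 fold change -1.36 ± 0.09, adjusted p = 5.61e-10). Among the 4191 genes that rose with KB02, 481 changed at least as much as PER1, itself included. The KB05 call against DMSO was lost without KB05 replicate 1 (adjusted p = 0.0513, range 0.000148 to 0.0513 over 19 alternatives).

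PER2, which acts with CRY proteins in the repressor complex, is on chromosome 2 at 238244038 to 238290102. Its level was 15, 13.9 and 14.1 CPM with KB05, 17.2, 19.3 and 16.8 CPM with KB02, and 20.1, 19.8 and 17.3 CPM with DMSO. The 3 KB05 libraries were the lowest of the 9, and KB02 overlapped DMSO. PER2 fell 1.33-fold with KB05 against DMSO (adjusted p = 0.00215). With KB02 against DMSO the log2 fold change was -0.10, with a 95% interval of -0.31 to 0.11 (adjusted p = 0.445). KB05 and KB02 differed by -0.31 ± 0.11 (adjusted p = 0.0179). That call was lost without KB02 replicate 2 (0.0539), KB05 replicate 2 (0.0611) or KB05 replicate 3 (0.0607), within a range of adjusted p of 0.00267 to 0.0611.

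PER3, a PERIOD gene whose loss has mild effects on the clock in mice, is on chromosome 1 at 7784320 to 7845177 and was barely expressed. It had 19 counts summed over the KB05 libraries, 71 over the KB02 libraries and 54 over the DMSO libraries. In CPM these were 0.313, 0.455 and 0.345 with KB05, 1.38, 0.721 and 1.27 with KB02, and 1.06, 0.826 and 1.09 with DMSO. All KB05 libraries lay below all others. PER3 was 2.67-fold lower with KB05 than with DMSO (log2 fold change -1.41 ± 0.46, adjusted p = 0.015) and 3.02-fold lower than with KB02 (adjusted p = 0.00528). At this depth the interval for KB02 against DMSO was wide, from -0.63 to 0.99 around 0.18 (adjusted p = 0.746).

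The cryptochrome genes were called in opposite directions with the compounds. CRY1, the stronger repressor in mouse cells, is on chromosome 12 at 106991364 to 107093829. It was at 16.8, 16.3 and 12.8 CPM with KB05, at 26.8, 28.6 and 32.9 CPM with KB02, and at 19, 20.4 and 16.5 CPM with DMSO. KB02 libraries stood above all others, while the highest KB05 library lay just above the lowest DMSO library. CRY1 rose 1.57-fold with KB02 against DMSO (log2 fold change 0.65 ± 0.11, adjusted p = 9.08e-06) and was 1.92-fold lower with KB05 than with KB02 (adjusted p = 4.59e-08). The fall with KB05 against DMSO was at the edge of the threshold (-0.28 ± 0.11, adjusted p = 0.0488). It was lost in 12 of 19 alternatives, DESeq2 among them (0.0606; range 0.0185 to 0.317), and was -0.17 without KB05 replicate 3 (0.317) and -0.21 without DMSO replicate 2 (0.217). Leaving out DMSO replicate 1 (0.107), KB02 replicate 2 (0.0609) or KB05 replicate 2 (0.0501) also ended the call.

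CRY2 is on chromosome 11 at 45847118 to 45883248. Its level was 15.5, 16.4 and 17.3 CPM with KB05, 26.9, 27.9 and 28.3 CPM with KB02, and 20.8, 22.4 and 25.5 CPM with DMSO. The 3 groups did not overlap anywhere, with DMSO between the compounds. CRY2 fell by 0.48 ± 0.10 on the log2 scale with KB05 against DMSO (adjusted p = 0.000221) and rose by 0.28 ± 0.09 with KB02 against DMSO (adjusted p = 0.0162). KB05 was below KB02 by 1.69-fold (adjusted p = 1.62e-07). The KB02 rise was lost without DMSO replicate 1 (adjusted p = 0.0823, range 0.000625 to 0.0823). CRY1 and CRY2 were thus the only members of the 10 called higher with KB02 and lower with KB05, and for CRY1 the second call was weak.

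**Figure D2:**
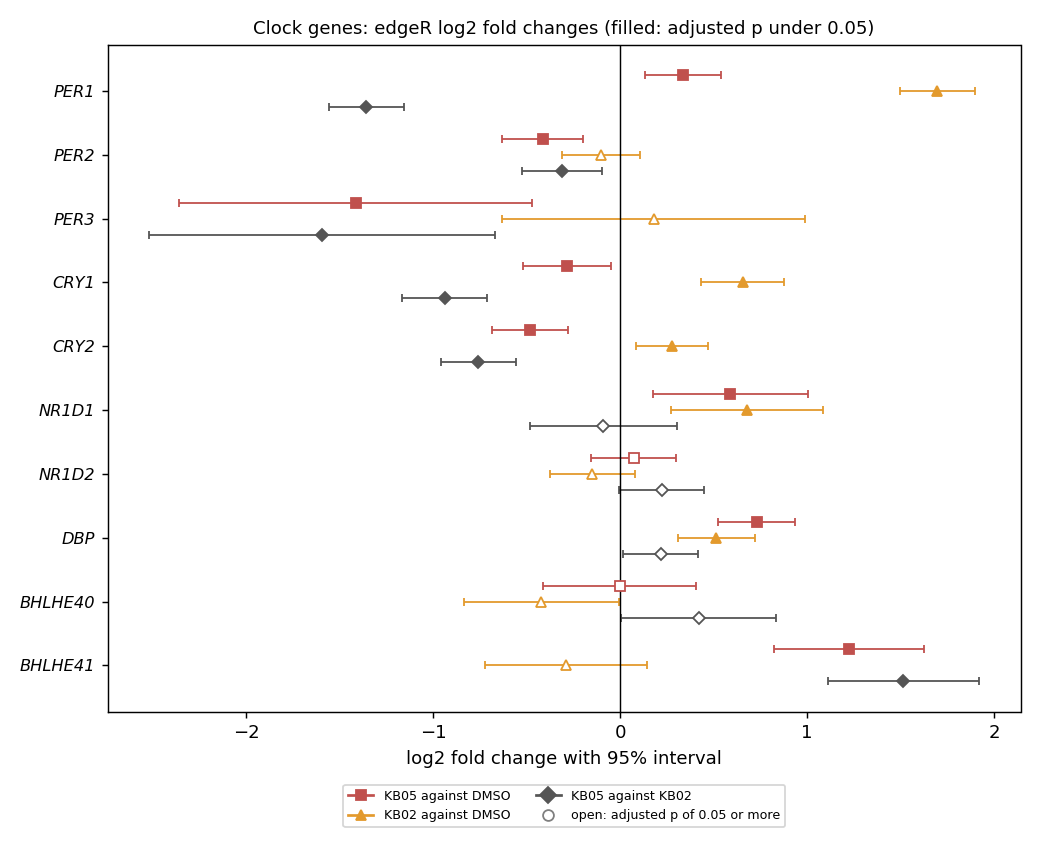
Log2 fold change of each clock gene (x axis, with 95% interval) for KB05 against DMSO (squares), KB02 against DMSO (triangles) and KB05 against KB02 (diamonds); open symbols did not pass the test. The direct comparison lies left of 0 for PER1 (-1.36), PER2, PER3, CRY1 and CRY2, and right of 0 for BHLHE41 (1.52).

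The REV-ERB receptors differed from each other. NR1D1 (chromosome 17, 40092787 to 40100725) was at 4.64, 5.33 and 5.81 CPM with KB05, at 7.03, 5.22 and 4.43 CPM with KB02, and at 2.7, 4.13 and 3.65 CPM with DMSO. Both compound groups lay above all DMSO libraries and overlapped each other. NR1D1 rose 1.5-fold with KB05 (adjusted p = 0.0211) and 1.60-fold with KB02 (adjusted p = 0.00554), each against DMSO. The difference between KB05 and KB02 was -0.09 on the log2 scale, with an interval of -0.48 to 0.30. Both calls were lost when certain single libraries were left out. That of KB02 was lost without KB02 replicate 1 (adjusted p = 0.054, range 0.00114 to 0.054). That of KB05 was lost without DMSO replicate 1 (0.128), KB05 replicate 2 (0.0512) or KB05 replicate 3 (0.0857), within a range of 0.0143 to 0.128.

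NR1D1 shares 263 exonic bases with THRA, a thyroid hormone receptor gene on the opposite strand, and the labels do not state whether the libraries kept strand. THRA averaged 13.3 ± 1.24 CPM with KB05, 10.4 ± 0.456 CPM with KB02 and 12 ± 0.543 CPM with DMSO (SD, n = 3). It passed the test against DMSO with neither compound (adjusted p = 0.359 for KB05 and 0.152 for KB02), but it was higher with KB05 than with KB02 (log2 fold change 0.36, adjusted p = 0.0166). Its mean lay above that of DMSO with KB05, as for NR1D1, and below it with KB02, unlike NR1D1.

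NR1D2 (chromosome 3, 23945260 to 23980618) is the partner receptor with overlapping function. It was at 16.8, 17.2 and 17.2 CPM with KB05, at 12.8, 14.6 and 16.6 CPM with KB02, and at 17.9, 15 and 15.8 CPM with DMSO. The log2 fold change against DMSO was 0.07 for KB05 (interval -0.16 to 0.30) and -0.15 for KB02 (-0.38 to 0.08). KB05 and KB02 libraries did not overlap, but the difference of 0.22 did not pass the test (adjusted p = 0.116). It passed without KB02 replicate 3 (adjusted p = 0.0369, range 0.0369 to 0.652).

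DBP, the D-box activator, is on chromosome 19 at 48630030 to 48637438. Its level was 36.1, 28.4 and 35.9 CPM with KB05, 26.6, 29.6 and 30.5 CPM with KB02, and 18, 22 and 20.5 CPM with DMSO. All compound libraries were above all DMSO libraries. DBP rose 1.66-fold with KB05 (log2 fold change 0.73 ± 0.10, adjusted p = 8.93e-07) and 1.43-fold with KB02 (0.51 ± 0.10, adjusted p = 8.96e-05), each against DMSO. KB05 and KB02 differed by 0.22 (unadjusted 95% interval 0.02 to 0.42, adjusted p = 0.0795), a difference that passed without KB05 replicate 2 (0.0146, range 0.0146 to 0.468).

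DBP shares 661 exonic bases with SPHK2, a sphingosine kinase gene on the opposite strand, and SPHK2 moved with it. SPHK2 averaged 36.6 ± 2.45 CPM with KB05, 38.6 ± 2.92 CPM with KB02 and 22.9 ± 2.84 CPM with DMSO (SD, n = 3). Its log2 fold change against DMSO was 0.68 for KB05 (adjusted p = 1.02e-06) and 0.76 for KB02 (adjusted p = 5.37e-08). How far reads of SPHK2 enter the DBP value was not tested, so the rise of DBP is uncertain.

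**Figure D3:**
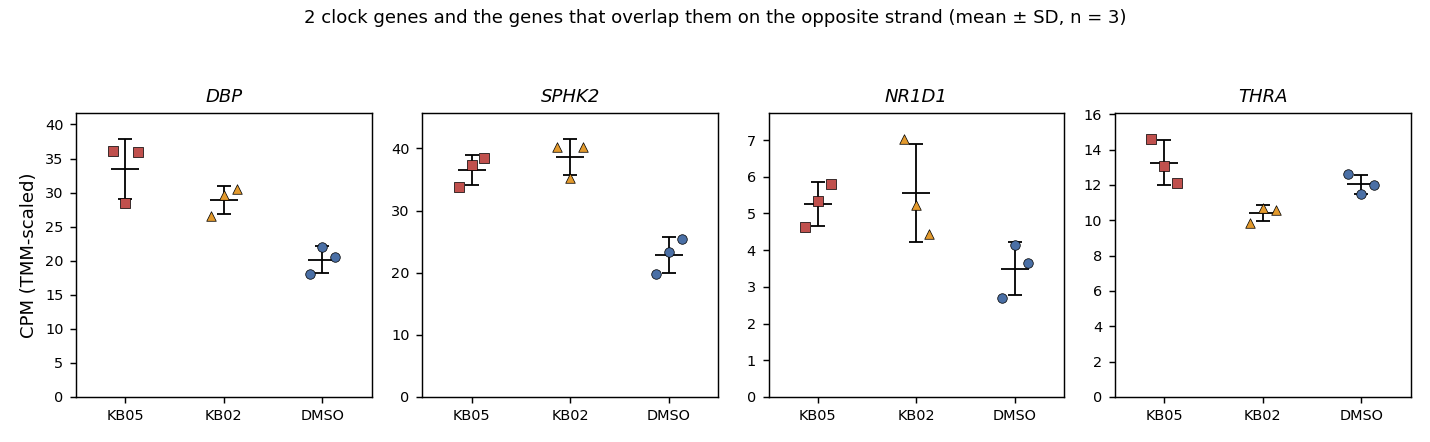
Levels (CPM, y axis from 0) of DBP and SPHK2 and of NR1D1 and THRA, the gene pairs that overlap on opposite strands, in KB05, KB02 and DMSO libraries, with the mean ± SD of 3. DBP and SPHK2 are both higher with each compound than with DMSO, while THRA in KB02 libraries averages 10.4 CPM against 12 CPM in DMSO libraries.

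The BHLHE genes encode E-box repressors that also answer to hypoxia, cytokines and stress. BHLHE41 (chromosome 12, 26120026 to 26125127) was at 8.28, 6.44 and 7.88 CPM with KB05, at 2.54, 2.61 and 2.77 CPM with KB02, and at 4.02, 2.32 and 3.34 CPM with DMSO. The KB05 libraries stood above all others, and KB02 lay within the DMSO range. BHLHE41 rose 2.34-fold with KB05 against DMSO (log2 fold change 1.23 ± 0.20, adjusted p = 8.28e-06) and was 2.86-fold higher with KB05 than with KB02 (adjusted p = 2.32e-07). With KB02 against DMSO the value was -0.29 (interval -0.72 to 0.14, adjusted p = 0.279). The gene SSPN, which shares 162 exonic bases with it on the opposite strand, averaged 0.372 CPM with KB05, 0.472 CPM with KB02 and 0.877 CPM with DMSO.

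BHLHE40 (chromosome 3, 4979116 to 4985323) was not called higher with KB05, against DMSO or against KB02. It was at 9.74, 10.7 and 8.56 CPM with KB05, at 6.12, 7.3 and 8.31 CPM with KB02, and at 7.41, 8.21 and 13.6 CPM with DMSO. DMSO replicate 3 stood far above the other DMSO libraries, which gave the group a coefficient of variation of 34.4%. The log2 fold change against DMSO was -0.003 for KB05 (interval -0.41 to 0.41) and -0.42 for KB02 (adjusted p = 0.0896). Without DMSO replicate 3 the KB05 value was 0.31 (adjusted p = 0.141) and the KB02 value -0.12 (adjusted p = 0.61). The KB02 fall passed the test without DMSO replicate 1 (0.014) and with no filter on low counts (0.0135), within a range of 0.0135 to 0.61.

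Set per kilobase of the longest coding transcript (GENCODE 29), levels can be ordered between genes. In DMSO libraries PER1 at 11.4 ± 1.82 and DBP at 9.07 ± 0.907 CPM per kilobase led, with ranges that overlapped. CRY1 (5.7 ± 0.608) and CRY2 (5.45 ± 0.574) followed and overlapped each other. NR1D2 (3.09 ± 0.281), PER2 (2.99 ± 0.238) and BHLHE40 (2.8 ± 0.962) formed the next tier, then NR1D1 (1.26 ± 0.263) and BHLHE41 (0.842 ± 0.223). PER3, at 0.157 ± 0.023, was lowest, and neighbouring tiers did not overlap. With KB02 PER1 stood alone at 37 ± 1.64 CPM per kilobase, ahead of DBP at 13 ± 0.902. With KB05 DBP (15 ± 1.97) and PER1 (14.4 ± 1.38) overlapped. Which isoforms were present was not measured, so this order depends on the transcript length taken.

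Of the positive arm of the loop, 6 activators and ROR receptors were taken, all tested. With KB05 against DMSO 1 fell and 0 rose in edgeR's test, also at an unadjusted p under 0.05. With KB02 against DMSO 1 rose and 0 fell, also at an unadjusted p under 0.05, and 2 were lower with KB05 than with KB02. The shares called were 16.7% with KB05 against DMSO (39.8% of all genes), 16.7% with KB02 against DMSO (46.1%) and 33.3% with KB05 against KB02 (40%). BMAL1, the partner of CLOCK, was at 3.33, 3.77 and 3.56 CPM with KB05, at 11.1, 7.3 and 8.31 CPM with KB02, and at 4.34, 4.39 and 5.17 CPM with DMSO. The 3 groups did not overlap. BMAL1 rose by 0.95 ± 0.17 on the log2 scale with KB02 against DMSO (adjusted p = 2.67e-05) and was lower with KB05 than with KB02 by 1.33 (log2 fold change -1.33 ± 0.18, adjusted p = 3.23e-07). Against DMSO, the KB05 value of -0.38 did not pass the test (adjusted p = 0.11). BMAL1 thus ranked the groups in the same order as CRY1 and CRY2, with KB02 highest and KB05 lowest. That order was not particular to them. The means of PER3, CLOCK, NPAS2, TEF, CSNK1D and DDB1, among others, had it too.

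NPAS2, which can replace CLOCK, averaged 4.83 ± 0.651 CPM with KB05, 7.25 ± 1.15 CPM with KB02 and 7.13 ± 1.08 CPM with DMSO (SD, n = 3). It fell by 0.56 ± 0.17 on the log2 scale with KB05 against DMSO (adjusted p = 0.00898). That call was lost without DMSO replicate 1 (adjusted p = 0.0703). CLOCK, BMAL2, RORA and RORB passed no test. CLOCK averaged 11.7 CPM with KB05, 13.1 CPM with KB02 and 12.1 CPM with DMSO. BMAL2 stood at 5.6, 4.85 and 5.18 CPM in KB05, KB02 and DMSO, RORA at 2.17, 2.02 and 2.38 CPM, and RORB at 2.08, 1.98 and 1.74 CPM, in the same order of groups.

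**Figure D4:**
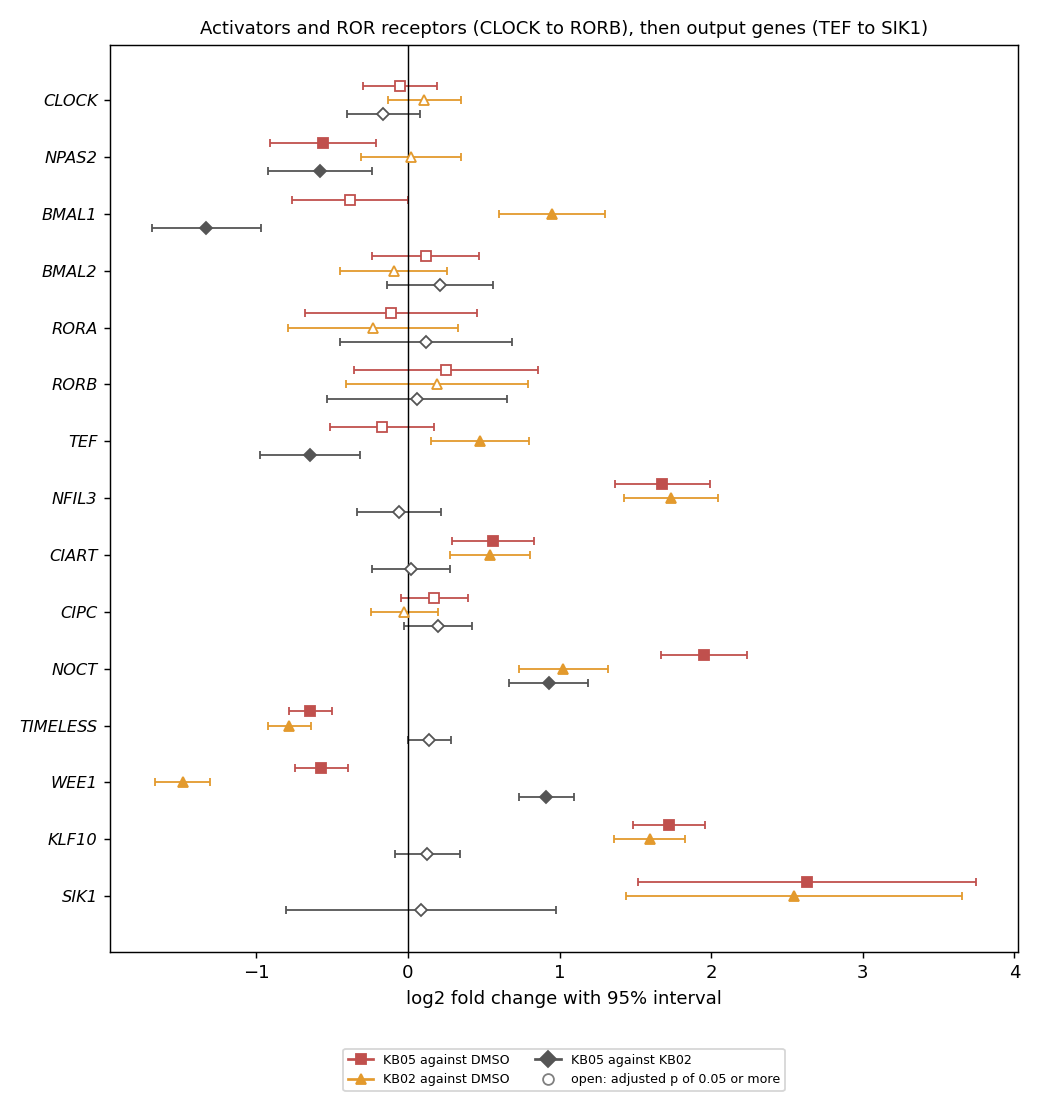
Log2 fold changes (x axis, with 95% interval) of the activators and ROR receptors, then of output genes, for KB05 against DMSO (squares), KB02 against DMSO (triangles) and KB05 against KB02 (diamonds); open symbols did not pass the test. NFIL3, NOCT and KLF10 lie right of 0 with both compounds and TIMELESS and WEE1 left of it, whereas BMAL1 splits the compounds.

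Of 10 output and other repressor genes 9 were tested, and 5 rose and 2 fell with KB05 against DMSO, while 6 rose and 2 fell with KB02. That is 77.8% called with KB05, where 39.8% of all genes were called, and 88.9% with KB02, where 46.1% were. The list was chosen with earlier results of these data known, so these shares do not test output genes as a set. NFIL3, the repressor that opposes DBP at D-boxes, averaged 11.9 ± 1.36 CPM with KB05, 12.3 ± 1.77 CPM with KB02 and 3.72 ± 0.461 CPM with DMSO (SD, n = 3). Its log2 fold change was 1.68 ± 0.15 with KB05 (adjusted p = 4.49e-10) and 1.74 ± 0.15 with KB02 (adjusted p = 4.7e-11). The D-box activator DBP and its opponent NFIL3 were thus both called higher with each compound. NOCT, a rhythmic enzyme also called nocturnin, averaged 16 ± 0.093 CPM with KB05, 8.42 ± 1.01 CPM with KB02 and 4.11 ± 0.374 CPM with DMSO. KB05 exceeded KB02 for NOCT by 0.93 ± 0.13 on the log2 scale (adjusted p = 5.08e-07). CIART, which represses the CLOCK complex, rose by 0.56 ± 0.13 with KB05 and by 0.54 ± 0.13 with KB02. KLF10, a zinc-finger factor under clock control in mouse liver, rose by 1.72 ± 0.11 with KB05 and by 1.60 ± 0.11 with KB02.

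TIMELESS and WEE1 link the clock to the cell cycle and fell with both compounds. TIMELESS averaged 103 ± 3.98 CPM with KB05, 93.2 ± 5.21 CPM with KB02 and 160 ± 6.75 CPM with DMSO (SD, n = 3). WEE1, the kinase that holds back entry into mitosis, averaged 48 ± 4.89 CPM with KB05, 25.4 ± 2.8 CPM with KB02 and 71.3 ± 4.45 CPM with DMSO. The WEE1 fall was -0.57 ± 0.09 with KB05 and -1.48 ± 0.09 with KB02, and the compounds differed by 0.91 ± 0.09 (adjusted p = 1.09e-09). TEF, a relative of DBP, averaged 5.33 ± 0.486 CPM with KB05, 8.32 ± 1.12 CPM with KB02 and 6.02 ± 1.03 CPM with DMSO. TEF was lower with KB05 than with KB02 by 0.65 ± 0.16 (log2 fold change -0.65, adjusted p = 0.00163). HLF, the remaining relative, had 6 counts over the KB05 libraries, 18 over the KB02 libraries and 16 over the DMSO libraries and was not tested.

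SIK1, a kinase gene induced by cAMP, rose by 2.63 ± 0.51 with KB05 and by 2.55 ± 0.51 with KB02 on the log2 scale. Its copy SIK1B is nearly identical, so the division of reads between them is uncertain. Summed over both genes, levels were 37.2, 34.3 and 31.8 CPM with KB05, 23.1, 19.3 and 24.3 CPM with KB02, and 5.87, 4.75 and 5.9 CPM with DMSO. The sums do not overlap between groups.

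Of 25 listed genes for enzymes and other regulators that act on clock proteins, 24 were tested, and 6 rose and 6 fell with KB05 against DMSO, while 11 rose and 4 fell with KB02. That is 50% called with KB05, where 39.8% of all genes were called, and 62.5% with KB02, where 46.1% were. This list too was chosen with earlier results known. FBXL21P, the gene not tested, is annotated as a pseudogene and had 0 counts in all 9 libraries. PRKAA1, the AMP-activated kinase subunit that marks CRY for breakdown in mouse cells, fell by 0.71 ± 0.08 with KB05 and by 0.95 ± 0.08 with KB02 on the log2 scale. Among genes of ubiquitin ligases, FBXW7 rose by 0.74 ± 0.09 with KB05 and 0.56 ± 0.09 with KB02, and BTRC, which targets PER proteins, by 0.52 ± 0.12 with KB05 and 0.62 ± 0.12 with KB02. USP2, a ubiquitin protease, rose by 1.08 ± 0.24 with KB05 (adjusted p = 0.00062). Its KB02 value of 0.59 ± 0.24 was at the threshold (adjusted p = 0.0494) and did not pass with DESeq2 (0.0717) or when any library other than DMSO replicate 3 was left out (0.0533 to 0.128).

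In the direct comparison of KB05 with KB02, 3 of these 24 regulators were higher and 8 lower, or 45.8% called against 40% of all genes. PRKAA1, CSNK2B and SKP1 were the 3 higher with KB05, while CSNK1D, SIRT1, CUL1 and DDB1 were among the 8 lower. CSNK1D, a kinase that phosphorylates PER proteins, averaged 92.7 ± 1.94 CPM with KB05, 168 ± 10.4 CPM with KB02 and 125 ± 5.71 CPM with DMSO (SD, n = 3), and the groups did not overlap. KB05 was below KB02 by 0.85 on the log2 scale (log2 fold change -0.85 ± 0.07, adjusted p = 2.19e-11). The deacetylase gene SIRT1 averaged 21.6 ± 1.12 CPM with KB05, 31.2 ± 1.73 CPM with KB02 and 16.9 ± 1.01 CPM with DMSO, and it rose with KB05 against DMSO too (log2 fold change 0.35, adjusted p = 0.00353). CUL1, a ubiquitin ligase scaffold, averaged 69.5 ± 2.04 CPM with KB05, 105 ± 2.76 CPM with KB02 and 66.5 ± 2.89 CPM with DMSO. In both SIRT1 and CUL1 the KB02 libraries stood above all others, whereas for DDB1 the KB05 libraries stood below all others. DDB1, which serves another ligase, averaged 69.4 ± 2.54 CPM with KB05, 112 ± 1.13 CPM with KB02 and 104 ± 1.55 CPM with DMSO. CSNK2A2, a catalytic subunit of casein kinase 2, rose with both compounds and averaged 21.7 ± 1.38 CPM with KB05, 23.2 ± 2.44 CPM with KB02 and 16 ± 1.36 CPM with DMSO.

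Total counts were 15506975 to 21900548 per library, and 3 counts corresponded to 0.129 to 0.195 CPM. Of 9 prostate and epithelial markers, KLK3 among them, none was at 0 in any library. Their summed level was 3030 to 3120 CPM with KB05, 2210 to 2360 CPM with KB02 and 2630 to 2990 CPM with DMSO. Of the 9, 4 rose and 2 fell with KB05 against DMSO, 7 fell with KB02 against DMSO (EPCAM 2.72-fold and TMPRSS2 2.53-fold), and 9 were higher with KB05 than with KB02. That is 66.7% called with KB05 against DMSO, where 39.8% of all genes were called, and 77.8% with KB02 against DMSO, where 46.1% were. For KB05 against KB02 it is 100%, against 40% of all genes. Of 12 markers of other cell types 1 to 3 were at 0 in a library, with VWF and MS4A1 at 0 in every KB05 library, and their sum was 42.6 to 46.3 CPM with KB05, 47.8 to 57.9 CPM with KB02 and 35.4 to 51.1 CPM with DMSO. Among them CD14, a monocyte marker, stood at 0.104 to 0.632 CPM with KB05, 7.04 to 11.8 CPM with KB02 and 0.258 to 0.729 CPM with DMSO. The leukocyte marker PTPRC averaged 11.8 CPM with KB05, 9.67 CPM with KB02 and 14.2 CPM with DMSO and passed no test (adjusted p = 0.0532 for KB02 against DMSO). COL1A1, a collagen gene of fibroblasts, averaged 19.7 CPM with KB05, 22.7 CPM with KB02 and 14.5 CPM with DMSO and rose with both compounds (adjusted p = 0.00261 for KB05 and 2.25e-05 for KB02). COL3A1, ACTA2 and PDGFRB of the same list passed no test. With KB02 against DMSO their log2 fold changes were 0.08, -0.34 and -1.41. With KB05 against DMSO they were 0.37, -0.31 and -0.31, where COL1A1 had 0.45 and the COL3A1 interval ran from -0.08 to 0.83. DCN had 15 counts over the KB05 libraries, 1 over the KB02 libraries and 15 over the DMSO libraries and was not tested. The part of these marker changes in the clock gene results was not tested.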

How the data were processed

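RNA from 22Rv1 cells was sequenced in 9 libraries (KB05, KB02 and DMSO, 3 each), while 15 libraries of an experiment at 8 h were not analysed here. The authors deposited estimated counts per gene, not scaled to depth. The submitters' processing notes name Salmon 1.3.0, DESeq2 1.30.1 and the build GRCh38.p13 without a role, and do not state whether strand was kept. Columns were matched to samples by their labels. The estimated counts were rounded, scaled by TMM and filtered by group with a minimum count of 10. They were tested with edgeR 4.0.16 (R 4.3.3), a quasi-likelihood test over all 9 libraries with Benjamini-Hochberg adjustment over all 18379 genes and a threshold of 0.05. The script was tested on simulated data. Errors of log2 fold changes are SE, and intervals are 95% and not adjusted. Total counts of 15506975 to 21900548 limit the precision for genes near 1 CPM. Replicates of a group differed by more than sampling noise. The p-values measure the spread between triplicates of 1 cell line.

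All 10 clock genes are named. Of the other lists, the 6 positive-arm genes are named, as are genes called with an absolute log2 fold change of at least 0.5. CSNK2B, SKP1 and the single markers were named after their values were seen. Some genes of these lists are not reported here. The members and lists were chosen with earlier results of these data known. Gene positions, transcript lengths and overlaps come from GENCODE 29, and promoter windows from RefSeq. Alternatives were other scalings, filters, a block for the replicate number, fits of 2 groups, unrounded counts, DESeq2 1.42.0, limma-voom (limma 3.58.1) and leaving out each library.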

Additional observations from a re-analysis of the deposited data

How the results depend on the processing

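Over 19 alternatives, 528 results on the 10 clock genes kept direction and side of the threshold, 21 lost the call, 8 gained one and 10 changed sign, none of the sign changes in a called value. For BHLHE40 with KB05 against DMSO the log2 fold change became 0.024 with upper-quartile factors, 0.021 with library size only, 0.014 with a minimum count of 50, 0.0039 with 2 groups fitted, 0.030 with the replicate block and 0.054 with limma-voom. It ran from -0.17 to 0.31 when leaving out a library, with positive values without DMSO replicate 3 or KB05 replicate 3. PER2 with KB02 against DMSO became 0.029 with library size only. NR1D1 with KB05 against KB02 ran from -0.22 to 0.069 when leaving out a library, positive without KB02 replicate 1. The cause was not tested. The count lower with KB02 against DMSO, 0 in the report, was 1 with no filter and 0 to 1 when leaving out a library. The count lower with KB05 against DMSO, 4 in the report, was 2 with a minimum count of 50, under which PER3 was not tested and CRY1 lost its call (adjusted p = 0.0557). CRY1 lost that call in 12 of 19 alternatives, this one included, and each loss lowered the count. The count higher with KB02 against DMSO, 5 in the report, was 4 without DMSO replicate 1 or KB02 replicate 1. Other small moves of the counts are not all listed. The count higher with KB05 against KB02, 1 in the report, was 2 with no filter, with 2 groups fitted and with the replicate block, and 1 to 2 when leaving out a library.

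Same-numbered libraries of different groups correlated at -0.09 to 0.13 after group means were taken out, and differently numbered ones at -0.19 to 0.12. The labels state no pairing, and with so few libraries these values cannot show whether there was one. Under the replicate block CRY1 with KB05 against DMSO (adjusted p = 0.053) and USP2 with KB02 against DMSO (0.0539) lost their calls, and BHLHE40 with KB05 against KB02 gained one (0.0446). Library size only moved the median over all genes by 0.13 for KB02 against DMSO and by -0.11 for KB05 against KB02. It raised the share of higher calls to 63.8% for KB02 against DMSO, where TMM gave 49.5%, and for KB05 against KB02 it gave 37.4% where TMM gave 54.4%. Depth was low for PER3, with 19 counts over the KB05 libraries.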
